A study of Rattus norvegicus with 6 samples.

Results

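Insulin is made in these cells from 4 transcripts of 3 species, which were followed here together with the drug-resistance gene that travels with the human one. The 5 features are the rat genes Ins1 (ENSRNOG00000012052) and Ins2 (ENSRNOG00000020405), the mouse Ins2-C-mCherry transgene (mINS2mcherry) and the human INS-neoR transgene, which the annotation splits into hINS and neoR. They were taken by gene name from the 32900 features of the RNA-seq table. The cells are of the rat line INS-1(832/13)::mCherry, derived from a pancreatic beta-cell tumour, and were grown in 7.5 mM glucose. All 6 lines carry both transgenes and a deletion of the Prader-Willi syndrome (PWS) domain on the silent maternal allele. The 3 control lines (5-9, 2 and 16) keep the active paternal allele, and the 3 PWS lines (3, 19-1 and 19-4) have it deleted too. Lines 2, 16, 3 and 19 were isolated from line 5-9, a clone sorted for mCherry fluorescence, and since 19-1 and 19-4 were both subcloned from line 19, the 3 PWS libraries come from 2 clones. Each line is 1 library of rRNA-depleted RNA.

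Insulin is the hormone with which beta cells lower blood glucose. Rats and mice have a pair of insulin genes: Ins2 is the ancestral copy, with an intron in the coding region, and Ins1 arose from it by retroposition. Humans have a single gene, INS. Each transcript encodes preproinsulin, which is folded in the endoplasmic reticulum (ER), sorted into granules and cut into insulin and C-peptide. In the mouse transgene the fluorescent protein mCherry is fused within the C-peptide, so that it marks granules, and neoR gives resistance to neomycin-type drugs. The promoters that drive the transgenes are not given in the sources used here.

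The 4 insulin transcripts are alike in sequence, which matters for how reads were assigned. The primers that the study used to tell the rat and mouse transcripts apart by RT-PCR are shown because they mark where the copies differ. In the lines below, capitals mark bases that differ from the Ins2 primer of the same pair, after ungapped alignment, and bases beyond its ends are in lower case.
Ins1 exon 1 forward: agtgaccagctacaAtcAtag
Ins2 exon 1 forward: ctaagtgaccagctacagtcg
Mouse Ins2 exon 1 forward: cctaagtgaTcCgctacaAtc
Ins1 exon 2 reverse: gacaaaagcctgggcaggCTT
Ins2 exon 2 reverse: acaaaagcctgggcagggcg
Mouse Ins2 exon 2 reverse: acaaaagcctgggTGgggTg
Of 18 aligned bases the Ins1 forward primer differed from that of Ins2 at 2, and the mouse primer differed at 3 of 20. For the reverse primers, both Ins1 and the mouse transcript differed from Ins2 at 3 of 20 bases.

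Reads were nevertheless placed on 1 feature in nearly all cases. Under nonunique all counting, a read that aligns to several places or features is counted at each, and under nonunique none counting it is left out. The reads kept under nonunique none were at least 99.79% of those under nonunique all for Ins1, Ins2 and mINS2mcherry in each line, between 97.6% and 100% for hINS and 100% for neoR. Over all 6 lines, 774 reads of Ins1, 17 of Ins2, 226 of mINS2mcherry, 3 of hINS and 0 of neoR were shared. These counts do not show whether a read placed at 1 site was placed on the right copy.

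The promoters of the rat genes are shown because Ins1 and Ins2 are the endogenous insulin genes whose levels are compared below. The 250 bases before each transcription start come from RefSeq, assembly GRCr8, and both genes lie on chromosome 1: chr1:261185869-261186118 on the plus strand for Ins1 and chr1:207273806-207274055 on the minus strand for Ins2. Both read 5′ to 3′ in the direction of the gene. RefSeq lists the Ins2 gene from base 207272738 to base 207421998, so the Ins2 window lies within that span. Capitals mark every match, on either strand, to 5 motifs: TATAAA (the TATA box), CATCTG (an E box), TAATTA (a homeodomain core), TGACGT (a cAMP response element core) and CCAAT (the CCAAT box).
Ins1 promoter: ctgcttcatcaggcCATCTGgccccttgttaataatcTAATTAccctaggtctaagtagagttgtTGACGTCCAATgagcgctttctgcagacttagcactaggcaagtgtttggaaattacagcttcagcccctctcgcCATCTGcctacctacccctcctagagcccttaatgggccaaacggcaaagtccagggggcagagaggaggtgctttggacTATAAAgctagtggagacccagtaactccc
Ins2 promoter: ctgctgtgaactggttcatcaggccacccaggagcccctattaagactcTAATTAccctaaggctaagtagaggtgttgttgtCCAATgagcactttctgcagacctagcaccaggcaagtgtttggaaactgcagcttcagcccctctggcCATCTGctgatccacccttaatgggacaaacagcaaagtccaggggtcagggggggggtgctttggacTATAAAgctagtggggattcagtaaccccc
The windows were 79.4% identical in a global alignment. Both held TATAAA from base -30 to base -25 before the start, and each held TAATTA and CCAAT once. CATCTG occurred at 2 positions in Ins1 and at 1 in Ins2, and TGACGT only in Ins1, where it directly precedes CCAAT without overlap. Among 33469 rat promoter windows of the same length, 12.9% held TATAAA, 14.0% CATCTG, 4.86% TAATTA, 6.95% TGACGT and 34.0% CCAAT. These are matches of letters and not shown to be binding sites.

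Between 26016478 and 36084261 reads were counted per line under nonunique all counting, where a read with several alignments enters the total more than once. Snrpn, a paternally expressed gene of the deleted domain, stood at 3149 to 3956 normalized counts with the paternal allele present and at 0 to 3.64 in its absence. Of the Snrpn reads over all lines, 0.888% were unique to it. All 10 beta-cell markers on the list were detected. Without Ins1, Ins2 and Iapp, the remaining 7 markers summed to between 34048 and 35055 normalized counts in control lines and between 28676 and 35630 in PWS lines. Of 10 markers of other islet and pancreas cells, 9 were in the table, 3 of them (Prss1, Sst and Ptprc) at 0 in every line. The alpha-cell hormone gene Gcg alone exceeded 3 reads in a line, with 100 normalized counts in line 19-4 against 0 to 19.0 in the others. Line 19-4 also had the lowest Ins1, Ins2 and mINS2mcherry, and the part of Gcg-expressing cells in those levels was not tested. Normalized counts are reads divided by the authors' size factor of each library. In bulk RNA, fewer cells that express a gene and less RNA per cell cannot be told apart.

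Ins1 supplied most of the insulin reads in every line and had a lower mean in PWS lines, but the difference did not pass the test. It had 256090, 262628 and 282807 normalized counts in lines 5-9, 2 and 16 (control) and 247273, 175597 and 133488 in lines 3, 19-1 and 19-4 (PWS). The control lines lay close together, the groups did not overlap, and the gap between them was narrow: line 5-9 stood only 1.04 times above line 3, whereas the PWS lines spread 1.85-fold among themselves. Ins1 was the 12th or 13th most abundant feature by normalized count in each line. The log2 fold change was -0.57 (SE 0.22, adjusted p = 0.389 in limma, n = 3 lines per group), and with lines 19-1 and 19-4 averaged into 1 sample it was -0.46. Without line 19-4 it was -0.36 and without line 3 it was -0.80.

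Ins2 was far less abundant than Ins1 and more uneven between lines than Ins1 or mINS2mcherry. Its normalized counts were 5197, 2310 and 7689 in control lines 5-9, 2 and 16, and 2494, 3135 and 1516 in PWS lines 3, 19-1 and 19-4. The groups overlapped: control line 2 was below PWS lines 3 and 19-1. Control lines spread 3.33-fold and PWS lines 2.07-fold, against 1.10-fold for Ins1 in control lines. The means were 5065 ± 2692 (SD, n = 3) and 2382 ± 816 (SD, n = 3). The log2 fold change was -0.99 (SE 0.42, adjusted p = 0.432 in limma), -1.47 without line 2 and -0.60 without line 16.

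The mouse Ins2-mCherry transgene did not overlap between the groups, and of the 5 features it had the lowest adjusted p in limma. On its contig it covers 3 exons with 1201 exonic bases. It had 34169, 38160 and 47714 normalized counts in lines 5-9, 2 and 16 (control) and 25332, 16273 and 13027 in lines 3, 19-1 and 19-4 (PWS). The groups lay 1.35-fold apart at the nearest (5-9 over 3) and 3.66-fold at the farthest (16 over 19-4). The mean in PWS lines was 0.455 of that in control lines. The log2 fold change was -1.18 (SE 0.23, adjusted p = 0.192 in limma), and 109 of the 15579 tested genes had a lower one. It passed 0.05 in DESeq2 (adjusted p = 0.0389), with each library scaled to Gpi (limma adjusted p = 0.0264) and without PWS line 3 (log2 fold change -1.44, limma adjusted p = 0.0177). It did not pass in edgeR (adjusted p = 0.226), nor with lines 19-1 and 19-4 averaged (limma adjusted p = 0.518).

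**Figure D1:**
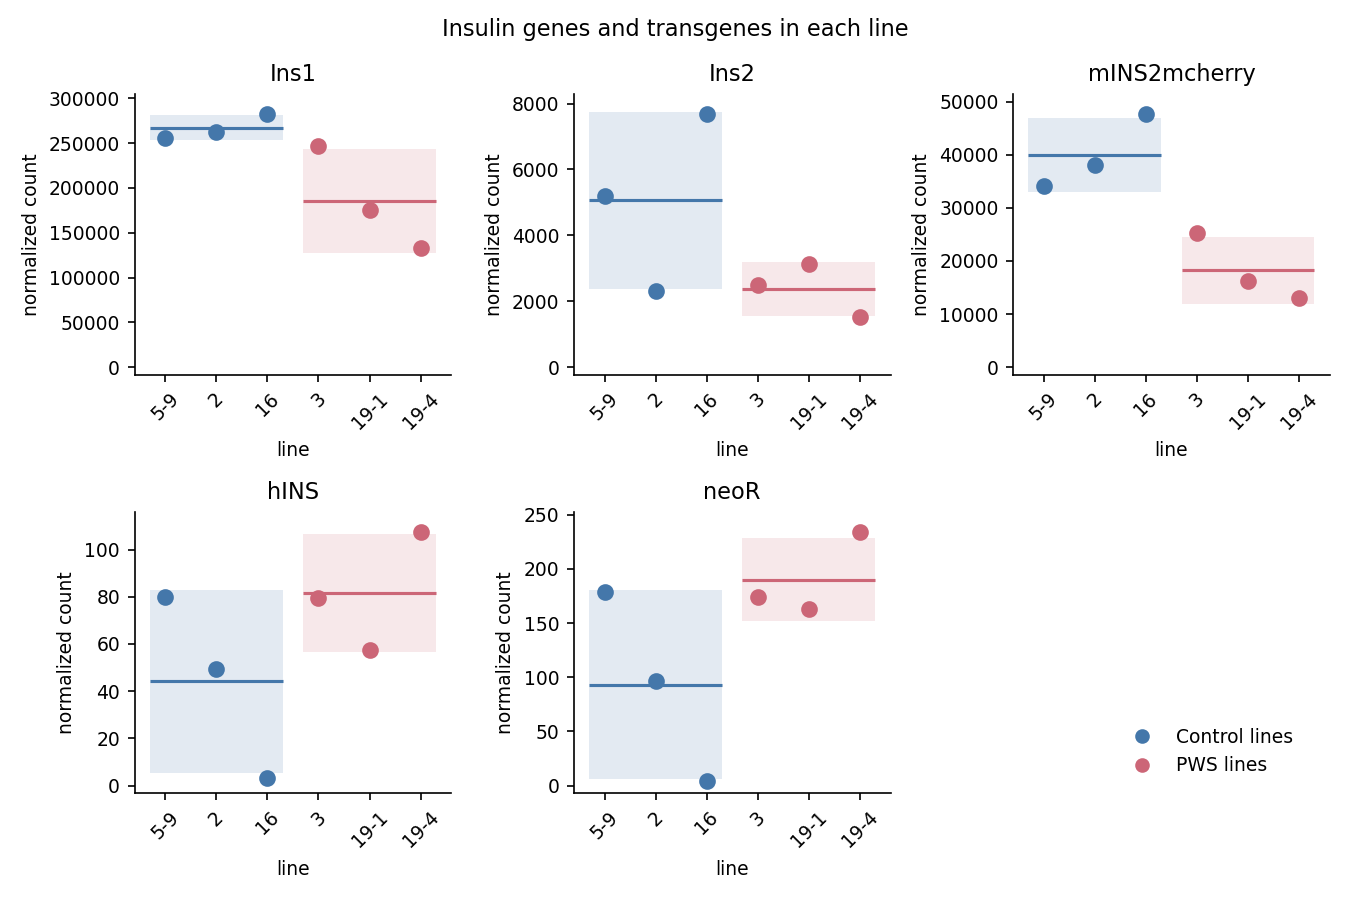
Normalized counts (y axis, linear) of Ins1, Ins2, mINS2mcherry, hINS and neoR in control lines 5-9, 2 and 16 (blue) and PWS lines 3, 19-1 and 19-4 (red). Points are single libraries, lines are group means and shaded bands are ± 1 SD (n = 3). Ins1 and mINS2mcherry do not overlap between groups, with the nearest lines 1.04-fold and 1.35-fold apart, whereas Ins2, hINS and neoR overlap, and line 16 has 3.08 normalized counts of hINS and 4.11 of neoR.

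The human INS-neoR transgene was a minor transcript in every line and nearly silent in line 16. hINS is a single exon of 416 bases on its contig, followed 231 bases further by neoR, a single exon of 892 bases. hINS had 84, 54 and 3 reads in control lines 5-9, 2 and 16, and 78, 48 and 118 reads in PWS lines 3, 19-1 and 19-4. For neoR the reads were 188, 105 and 4 in the control lines and 170, 136 and 257 in the PWS lines, in the same order. Line 16 was lowest and line 19-4 highest in both features. Of the other lines, 5-9 and 3 had nearly the same hINS level, 79.7 and 79.6 normalized counts, and 2 and 19-1 were lower, at 49.6 and 57.4.

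Line 16 lay at 3 reads of hINS, the limit that a count of 0 allows. Relative to total reads, control lines 5-9 and 2 together had 21.2 times the hINS of line 16 (95% exact counting interval 7.10 to 104). For neoR this ratio was 33.8 (13.0 to 125). The intervals cover counting error only, since each line is 1 library. The same library had the highest Ins1, Ins2 and mINS2mcherry of all 6 lines.

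Group comparisons of the human transgene depended strongly on line 16. The mean hINS level was 44.1 ± 38.6 normalized counts (SD, n = 3) over the control lines against 81.4 ± 25.0 (SD, n = 3) over the PWS lines. For neoR the means were 93.0 ± 87.2 and 190 ± 38.3 (SD, n = 3). The log2 fold change of hINS was 1.65 (SE 0.96, adjusted p = 0.562 in limma) with line 16 and 0.32 (SE 0.32, adjusted p = 0.740 in limma) without it. For neoR it was 2.08 (SE 1.12, adjusted p = 0.530 in limma) with line 16 and 0.51 (SE 0.28, adjusted p = 0.532 in limma) without it. Without line 5-9 the values were higher, 2.48 for hINS (unadjusted p = 0.0303, adjusted p = 0.532 in limma) and 3.08 for neoR (unadjusted p = 0.0203, adjusted p = 0.505 in limma). On the recovered reads with all 6 lines included, the log2 fold changes were smaller: 0.88 in edgeR and 0.88 in DESeq2 for hINS, and 1.03 in both for neoR. Neither feature passed the test in any setting run.

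Per kilobase of exon, the transgenes could be compared with each other, and the levels were orders of magnitude apart. Outside line 16, mINS2mcherry had between 10847 and 31773 normalized counts per kilobase, hINS between 119 and 258, and neoR between 108 and 262. In line 16 these levels were 39729, 7.41 and 4.61. Here hINS and neoR are parts of the same transgene. Line 16 held the most of 1 transgene and the least of the other.

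None of the 5 features passed an adjusted p of 0.05 in limma, where 40 of 15579 tested genes did (0.257%), and none passed 0.1, where 44 did (0.282%). All 5 features passed the filter of a mean of at least 5 normalized counts. Without adjustment, 3 of the 5 (Ins1, Ins2 and mINS2mcherry) were lower in PWS lines at a limma p under 0.05, as were 833 of all tested genes (5.35%). Of these 3, mINS2mcherry alone was left at a limma p under 0.05 with lines 19-1 and 19-4 averaged, and likewise without control line 5-9, without control line 16 or without PWS line 19-4. In these fits 3.74%, 4.71%, 4.96% and 3.46% of all tested genes were lower at that p. Ins1 was also lost without line 2 or 19-1, and Ins2 without line 3 (4.70%, 4.08% and 5.56% of all tested genes). For 2 of the 5 (Ins1 and mINS2mcherry) every PWS line was below every control line, which held for 1404 of all tested genes (9.01%). In DESeq2, 1 of the 5 passed (mINS2mcherry), against 228 of all tested genes (1.46%). In edgeR none of the 5 passed an adjusted p of 0.05, against 32 of all tested genes (0.205%). The same 3 were lower at an unadjusted edgeR p under 0.05, as were 817 of all tested genes (5.24%).

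**Figure D2:**
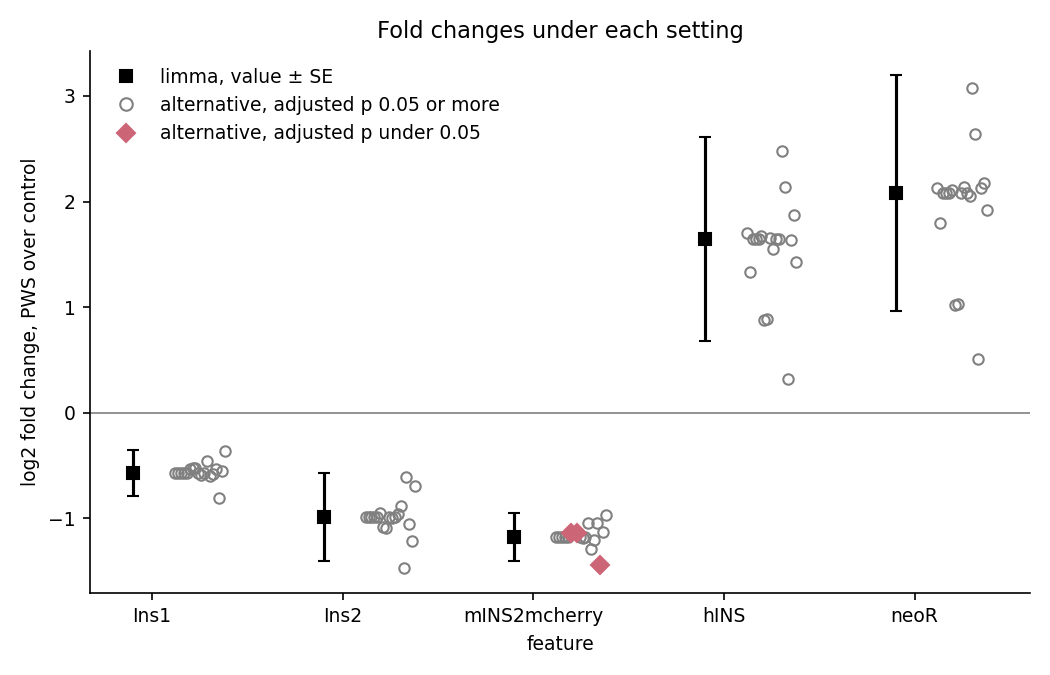
Log2 fold change of PWS over control lines (y axis) for the 5 features (x axis) in limma (black squares, ± SE) and in each alternative setting (grey circles, or red diamonds where the adjusted p was under 0.05). Only mINS2mcherry has red diamonds (3 settings), and the lowest circles of hINS and neoR, at 0.32 and 0.51, are the values without line 16.

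Shares of all counted reads do not depend on size factors. Together the 4 insulin features took 0.926%, 0.915% and 1.02% of reads in control lines 5-9, 2 and 16, and 0.843%, 0.627% and 0.481% in PWS lines 3, 19-1 and 19-4. On average this was 0.955% ± 0.0607 (SD, n = 3) with the paternal allele and 0.650% ± 0.182 (SD, n = 3) without it. The groups did not overlap, and the exact two-sided permutation test gave p = 0.1, the smallest value that 3 lines against 3 can give, and 0.2 after adjustment over the 6 shares compared. Ins1 alone took 0.802%, 0.793% and 0.857% in control lines and 0.757%, 0.564% and 0.433% in PWS lines. Under nonunique none counting, with smaller read totals, the differences in share were larger by over 1.5 times: -0.488 instead of -0.305 percentage points for the 4 features together, and -0.374 instead of -0.232 for Ins1. The 95% Wilson interval of the Ins1 share in line 19-4, which covers counting error within that library only, ran from 0.431% to 0.435%.

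The mouse transgene took 0.107%, 0.115% and 0.145% of reads in control lines 5-9, 2 and 16, and 0.0776%, 0.0523% and 0.0423% in PWS lines 3, 19-1 and 19-4 (exact permutation p = 0.1, adjusted 0.2). The difference was -0.0649 percentage points, and -0.101 under nonunique none counting. Ins2 took between 0.00697% and 0.0233% in control lines and between 0.00492% and 0.0101% in PWS lines (exact permutation p = 0.3, adjusted 0.3). hINS did not exceed 0.000348% and neoR 0.000758% of reads in any line. For both of these the exact permutation p was 0.3, also after adjustment.

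Ratios between features within a line show whether 2 transcripts differed by unlike amounts, and the ratio of the mouse transgene to Ins1 separated the groups most tightly. Ratios of reads are not corrected for length and are compared only between lines. There were 0.133, 0.145 and 0.169 reads of mINS2mcherry per read of Ins1 in control lines 5-9, 2 and 16, and 0.102, 0.0927 and 0.0976 in PWS lines 3, 19-1 and 19-4. The 3 PWS lines lay close together in this ratio although their Ins1 levels spread 1.85-fold. The log2 ratio averaged -2.75 ± 0.17 (SD, n = 3) over the control lines and -3.36 ± 0.07 (SD, n = 3) over the PWS lines, a difference of -0.61. The exact permutation p was 0.1, the smallest possible, and 0.25 after adjustment over the 5 ratios compared. Leaving out 1 line at a time kept the difference between -0.68 and -0.51.

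The ratio of Ins2 to Ins1 did not separate the groups. There was 1 read of Ins2 for 49.3, 114 and 36.8 reads of Ins1 in control lines 5-9, 2 and 16, and for 99.1, 56.0 and 88.1 in PWS lines 3, 19-1 and 19-4. The log2 ratio differed by -0.42 between the groups (exact permutation p = 0.6, adjusted 0.75), less than the SD of 0.85 among control lines. It was -0.07 without control line 16, -0.89 without control line 2, -0.25 without PWS line 3 and -0.66 without PWS line 19-1. Line 2 had a low Ins2 level beside an Ins1 level like that of the other control lines.

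The mouse transgene gave 6.57, 16.5 and 6.21 reads per Ins2 read in control lines 5-9, 2 and 16, and 10.2, 5.19 and 8.60 in PWS lines 3, 19-1 and 19-4. The log2 ratio differed by -0.19 (exact permutation p = 0.8, adjusted 0.8), and the sign turned without line 2 (0.27) and without line 19-1 (0.09). For hINS over Ins1 the log2 ratio was -11.7, -12.4 and -16.5 in control lines 5-9, 2 and 16, and -11.6, -11.6 and -10.3 in PWS lines 3, 19-1 and 19-4. The groups did not overlap, but line 5-9 was within 0.1 of lines 3 and 19-1 on the log2 scale. The difference was 2.35 (exact permutation p = 0.1, adjusted 0.25) and 0.86 without line 16.

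Within the human transgene, neoR gave 2.24 and 1.94 reads per hINS read in control lines 5-9 and 2, and 2.18, 2.83 and 2.18 in PWS lines 3, 19-1 and 19-4. In line 16 the ratio of 1.33 rested on 4 and 3 reads. The difference of 0.40 in log2 ratio had an exact permutation p of 0.3 (adjusted 0.5), and was 0.19 without line 16.

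**Figure D3:**
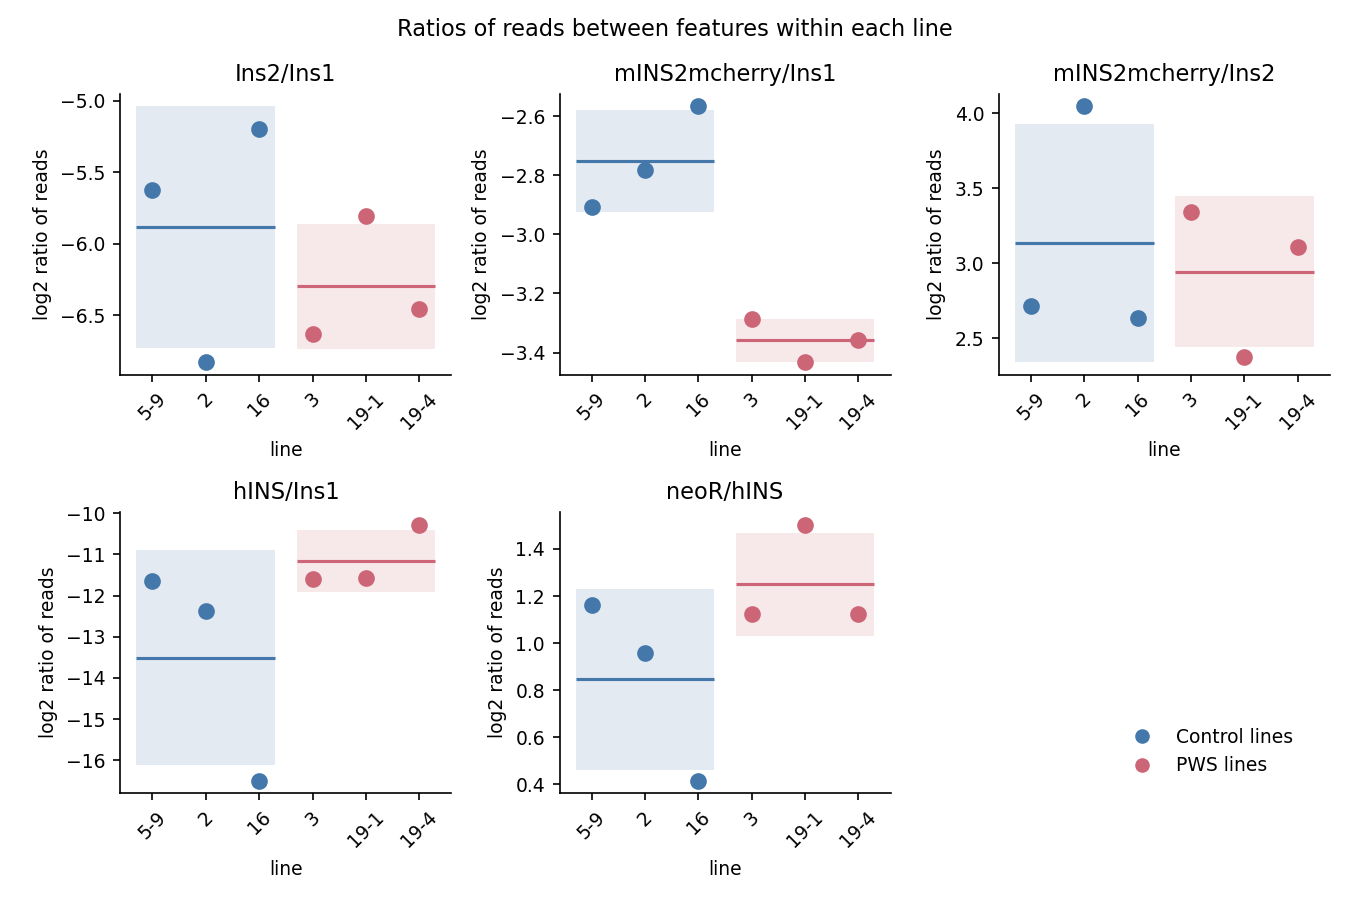
Log2 ratio of reads (y axis) between pairs of features in control lines 5-9, 2 and 16 (blue) and PWS lines 3, 19-1 and 19-4 (red). Points are single libraries, lines are group means and bands are ± 1 SD (n = 3). For mINS2mcherry/Ins1 the PWS lines lie between -3.43 and -3.29, below all control lines (-2.91 to -2.57), whereas Ins2/Ins1 and mINS2mcherry/Ins2 overlap, and line 16 stands apart in hINS/Ins1 at -16.5.

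The genes that act before, on and beside insulin were read from lists of the same fit. The lists were chosen with earlier results of these data known, so counts of their members are descriptions. Over all tested genes the median was -0.00284 on the log2 scale. Transcription factors of the insulin genes lay close to 0, with a median of 0.02 over the 13 tested, none of them past an adjusted p of 0.05 in limma or below an unadjusted 0.05. Their lowest and highest were Pax6, a paired-homeodomain factor, at -0.19 (SE 0.09, adjusted p = 0.449 in limma) and Rfx6, a winged-helix factor, at 0.16 (SE 0.08, adjusted p = 0.513 in limma).

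Proinsulin folding genes, some of which the paper had named as lowered in these data, had a median of -0.47 over 8 tested. None passed an adjusted p of 0.05 in limma, and 5 of the 8 were lower in PWS lines without adjustment, against 5.35% of all tested genes. This count was 4 without control line 5-9 or PWS line 3, in fits where 4.71% and 5.56% of all tested genes were lower at that p. It was 3 without control line 16, PWS line 19-1 or PWS line 19-4, in fits where 4.96%, 4.08% and 3.46% of all tested genes were lower at that p. Without control line 16, 1 of the 8 was also higher in PWS lines at that p. Hspa5, the ER chaperone BiP, had 59385, 70665 and 72342 normalized counts in lines 5-9, 2 and 16 (control) and 54202, 40806 and 40088 in lines 3, 19-1 and 19-4 (PWS), without overlap. Its log2 fold change was -0.59 (SE 0.14, adjusted p = 0.265 in limma), the lowest of the list, and Ero1a, an ER oxidase, was highest at 0.10. In DESeq2, Hspa5 (adjusted p = 0.00335) and the disulfide isomerase Pdia4 (adjusted p = 0.00919) passed, 2 of the 8, against 1.46% of all tested genes.

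Genes of proinsulin processing and storage had a median of -0.01 over 6 tested, with 0 past an adjusted or unadjusted limma p of 0.05 in either direction. Their range ran from Pcsk2, a prohormone convertase, at -0.17 (SE 0.28) to Scg5, the chaperone of that convertase, at 0.08 (SE 0.11). Pcsk2 stood at 28336, 15286 and 33604 normalized counts in lines 5-9, 2 and 16 (control). In PWS lines 3, 19-1 and 19-4 it had 25960, 23193 and 16914.

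Granule cargo genes, some of which the paper had named as changed in these data, had a median of -0.04 over 7 tested, and 0 passed the adjusted limma p. Without adjustment, 1 was higher in PWS lines at a limma p under 0.05 (Chgb), as were 935 of all tested genes (6%), and 2 were lower (Iapp and Npy), as were 5.35%. The lower count was 1 without control line 16, where 4.96% of all tested genes were lower. Under nonunique none counting it was 1 of 6 tested, against 5.29% of all tested genes. Iapp encodes amylin, which is stored and released with insulin. Its normalized counts were 210391, 194173 and 246567 in control lines 5-9, 2 and 16, and 181227, 150687 and 97752 in PWS lines 3, 19-1 and 19-4. Like Ins1, it was highest in line 16 and lowest in line 19-4, with no overlap between groups. Its log2 fold change of -0.64 (SE 0.22, adjusted p = 0.364 in limma) was the lowest of the list. Chgb, which encodes the granule protein chromogranin B, went the other way: 23243, 9355 and 12275 in control lines 5-9, 2 and 16, and 41825, 41729 and 41746 in PWS lines 3, 19-1 and 19-4. Its log2 fold change was 1.59 (SE 0.28, adjusted p = 0.125 in limma), and it passed without control line 5-9 (1.96, adjusted p = 0.0011 in limma) and in DESeq2 (adjusted p = 0.0271). Npy passed in DESeq2 as well, at -0.52 (adjusted p = 0.00769), but 0 of its reads were unique to it. Chgb and Npy were 2 of 7 in DESeq2, where 1.46% of all tested genes passed.

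Other members of the insulin superfamily were low or level. Igf2, the growth factor gene next to Ins2, had 2913, 2342 and 3849 normalized counts in lines 5-9, 2 and 16 (control) and 3404, 3599 and 2552 in lines 3, 19-1 and 19-4 (PWS). Its log2 fold change was 0.08 (SE 0.19, adjusted p = 0.908 in limma) and ran from -0.09 to 0.27 with each line left out. Th, on the other side, had at most 3.06 normalized counts in a line and was not tested. Igf1, at -1.04 (SE 0.77), and the relaxin gene Rln1, at 0.30 (SE 0.55), had under 35 normalized counts in each line. The reference genes Gapdh, Gpi and Actb had log2 fold changes of -0.02, -0.04 and 0.02, each with an SE of 0.07 or 0.08.

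**Figure D4:**
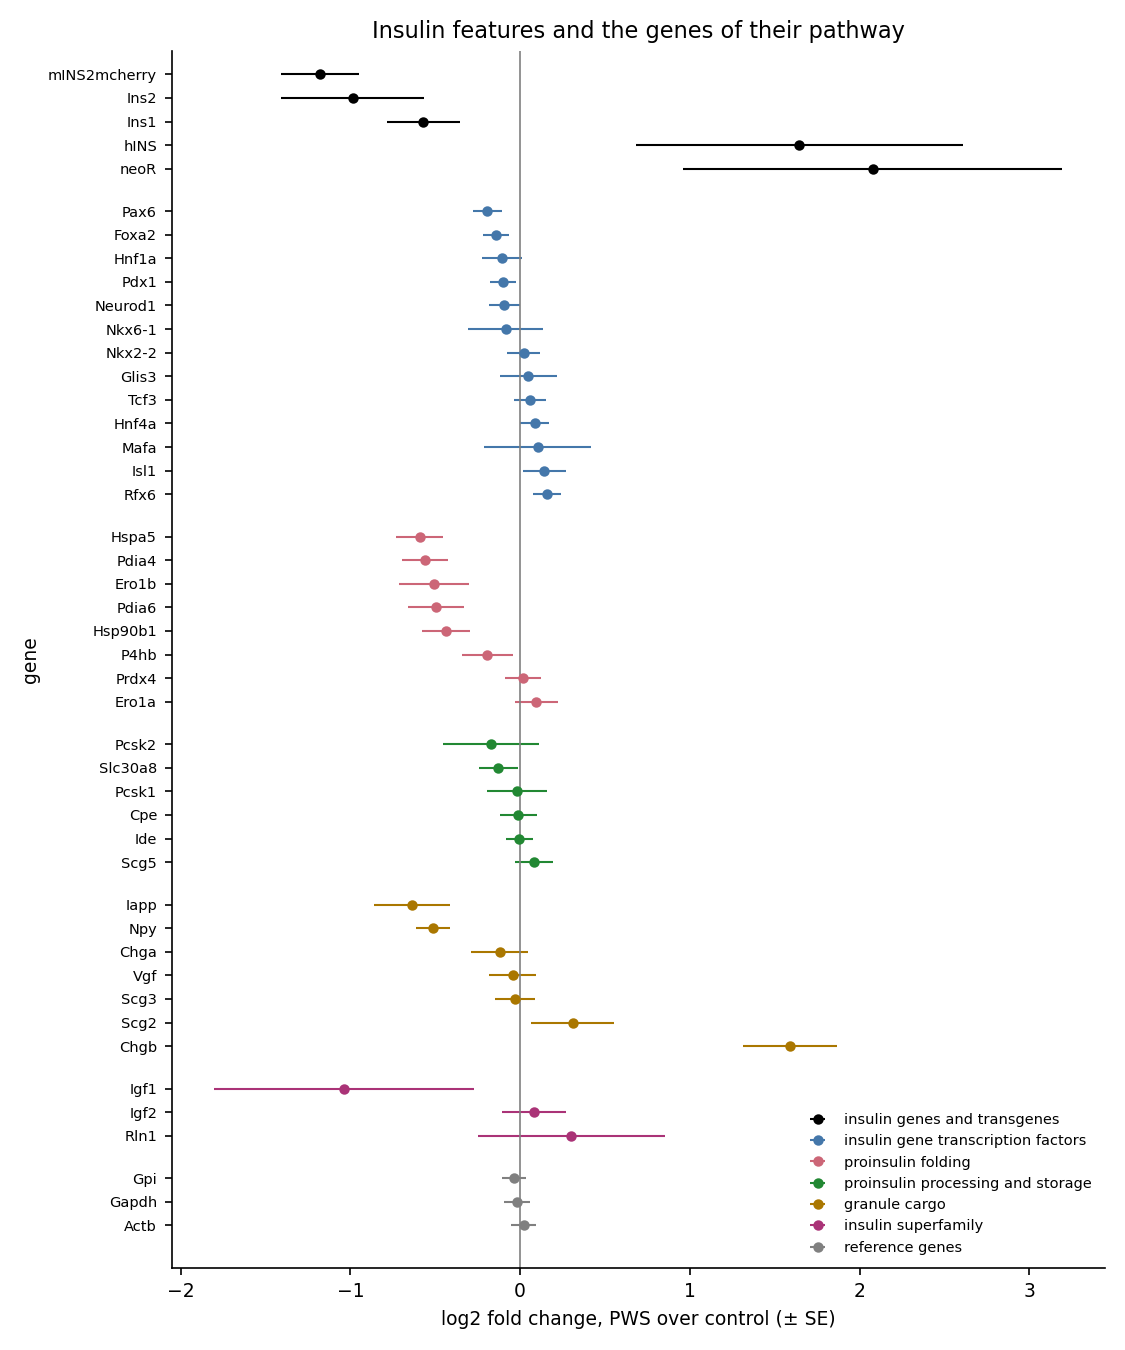
Log2 fold change of PWS over control lines (x axis, ± SE, limma) for the insulin features (black) and for the tested genes of each pathway list (y axis, coloured by list). mINS2mcherry at -1.18, Ins2 at -0.99 and Ins1 at -0.57 lie left of all transcription factors (-0.19 to 0.16), hINS and neoR lie to the right with the widest error bars, and the reference genes lie within 0.04 of 0.

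The genes whose levels followed each feature most closely over the 6 lines were taken among 11022 genes with a symbol and a mean of at least 50 normalized counts. The lines share ancestry and the genes were picked for the highest r, so the correlations are descriptions. Values of r over fewer lines reuse part of the values that picked the genes. For mINS2mcherry the genes were Acsl5 (Pearson r = 0.998), Oat (0.997) and the ER chaperone gene Hyou1 (0.995), and r was 0.982 or above over the 4 lines left without 19-1 and 19-4. For Ins1 they were Dnajb2 (0.995), Niban1 (0.994) and Fgb (0.993), with r between 0.789 and 0.935 without the same lines. For Ins2 they were Pcgf1 (0.986), Ptprr (0.981) and Trpt1 (0.978), with r of at least 0.922 without lines 16 and 5-9. For Pcgf1, 0 reads were unique to it.

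For the human transgene the correlations were lower without line 16. Trpa1, a cation channel gene, followed hINS most closely (r = 0.989 over 6 lines, 0.769 over the 5 lines without line 16, and 0.826 without lines 16 and 19-4). Its normalized counts were 245, 158 and 15.4 in control lines 5-9, 2 and 16, and 197, 138 and 213 in PWS lines 3, 19-1 and 19-4. Klhl42 (0.983) and Fitm2 (0.982) came next, with r of 0.646 and 0.626 without line 16, and of 0.328 and 0.0843 without lines 16 and 19-4. For neoR they were Cndp2 (0.988), Pllp (0.983) and Urb2 (0.982), with r between 0.628 and 0.744 without line 16 and between 0.155 and 0.631 without lines 16 and 2.

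RSEM gave lower values than nonunique all counting, by a nearly constant factor for Ins1, Ins2 and mINS2mcherry and by a more variable one for hINS and neoR. RSEM values were between 0.934 and 0.953 of the nonunique all values for Ins1 and between 0.925 and 0.943 for Ins2. For mINS2mcherry they were between 0.641 and 0.652, for hINS between 0.438 and 0.679 and for neoR between 0.621 and 0.774. The log2 fold changes under RSEM were -0.58 for Ins1, -1.18 for mINS2mcherry, 1.55 for hINS and 2.13 for neoR.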

How the data were processed

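The authors prepared stranded, rRNA-depleted libraries with 75-base paired-end reads, trimmed them with cutadapt, aligned them with STAR 2.7.0e to the Ensembl rat genome, extended by both transgenes, and obtained gene counts with HTSeq 0.11.2 (nonunique all or none) or RSEM 1.3.1. The deposited value per line is a signal, counts or RSEM estimates divided by DESeq2 size factors, and is called a normalized count. The authors' own fold changes and p-values in these tables were not used. Samples were grouped by their titles. The 5 features and all gene lists were chosen with earlier results of these data known.

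Within each column of the HTSeq files, dividing by the smallest value above 0 gave whole reads for 100% of the values (tolerance 0.01). Between 26016478 and 36084261 reads per line were counted under nonunique all, the main table. Groups were compared with limma 3.58.1 (R 4.3.3, eBayes with trend), applied to log2(normalized count + 1) of 15579 features with a mean of at least 5, two-sided, Benjamini-Hochberg threshold 0.05. Fold changes are on that scale, as differences of group means of log2 values, so a single low line weighs more than in edgeR or DESeq2. edgeR 4.0.16 (quasi-likelihood) and DESeq2 1.42.0 on the recovered reads were alternatives. limma had been planned for the deposited normalized counts and stayed the main test after whole reads were recovered. The pipeline was tested on simulated data. Shares and log2 ratios were compared by an exact two-sided permutation test, whose smallest p for 3 against 3 lines is 0.1. p-values measure the spread between lines, which share ancestry. Intervals of shares are 95% Wilson intervals and cover counting error only, and a count of 0 allows up to 3 reads. Named genes were the 5 features, the highest and lowest member of each list, the reference genes and the 3 genes most correlated with each feature. Snrpn checks the deletion and Th is on the list of genes beside Ins2. Pdia4, Npy, Gcg, Prss1, Sst and Ptprc were named after their values were seen. Of the listed symbols, 4 (Insm1, Pcsk1n, Insl5 and Pecam1) had no row in the table used. Alternatives were pseudocounts of 0.5 and 5, a filter that kept every feature with a read or 1 that required a mean of 50, scaling by TMM or to Gpi, the nonunique none and RSEM tables, a replicate block, lines 19-1 and 19-4 averaged, each line left out, and a threshold of 0.1. Promoter sequences are from RefSeq (GRCr8), which is not the build of the files, and primers are those the study listed.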

Additional observations from a re-analysis of the deposited data

How the results depend on the processing

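The log2 fold changes of the 5 features kept their direction in every alternative run, and only mINS2mcherry changed sides of the threshold. It passed when scaled to Gpi (-1.14) and in DESeq2 (-1.14), so that 1 of the 5 features passed in each (48 of 15578 tested genes passed when scaled to Gpi), and ranged from -1.44 to -0.96 with each line left out, which gave 0 to 1 features past the threshold. Over its alternatives its adjusted p (limma unless named) ran from 0.0177 to 0.566. The number of all tested genes past the adjusted p was 40, against 9 with a mean of at least 50, 228 in DESeq2, 16 with nonunique none counting and 12 with RSEM, and 33 to 55 with a line left out. The difference in log2 ratio of mINS2mcherry to Ins2, -0.19, turned to 0.27 without control line 2 and to 0.09 without PWS line 19-1, and ranged from -0.44 to 0.27 with each line left out. The cause of these changes was not tested. The replicate numbers did not pair the lines: deviations of same-numbered lines correlated at 0.00345, 0.0467 and 0.00513. With the replicate number as a block, the log2 fold changes were the same (-0.57 for Ins1, -0.99 for Ins2, -1.18 for mINS2mcherry, 1.65 for hINS and 2.08 for neoR), 0 of the 5 features passed, 36 of all tested genes did, and 2 of the 5 (Ins1 and mINS2mcherry) were lower at an unadjusted limma p under 0.05, as were 5.12% of all tested genes. No exact test of 3 lines against 3 can pass 0.05, so the shares and ratios say nothing about stability by their p. With 3 or 4 reads of hINS and neoR in line 16, depth limits what can be said about the human transgene there.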
